A study of Mus musculus with 9 samples.

Results

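The cadherin superfamily genes were examined in B16F10 cells, a mouse melanoma line, carrying guides against Tada2b or a guide named for GFP. Members were the protein-coding genes whose symbols begin with Pcdh, or with Cdh, Dsc, Dsg, Fat, Celsr or Dchs followed by a digit, by the symbols of release M21 of the GENCODE annotation. The rule found 110 members among the 54752 genes of the count table and used no measured value. Cadherins are membrane proteins with repeated extracellular domains that bind calcium and, in many members, bind a cadherin of the neighbouring cell. Classical cadherins hold cells together through adherens junctions and are tied to actin by catenins. Protocadherins form a larger branch, known mostly from neurons, in which clustered members give single cells different surface combinations. In the pigment lineage, E-cadherin (Cdh1) couples melanocytes to keratinocytes, and a move to N-cadherin (Cdh2) is a known feature of melanoma progression.

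The study compared libraries labelled Tada2bsg1 (guide 1) and Tada2bsg2 (guide 2), whose listed genotype is Tada2b knockout, with libraries labelled GFPsg, listed as wild type. Each group had 3 libraries of stranded mRNA-seq, and all cells were B16F10 grown in DMEM with 10% FBS. Tada2b encodes an adaptor of the SAGA histone acetyltransferase complex. The labels do not say whether a group was a clone or a pool, nor whether its replicates were separate cultures, so p-values measure the spread between these libraries, which may be technical.

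Library totals lay between 70.6 and 76.9 M counts (M, mega). Tada2b itself had 32.3, 33.3 and 32.7 CPM (counts per M counts) in libraries labelled Tada2bsg1 and 29.0, 26.0 and 25.9 CPM in libraries labelled Tada2bsg2, against 28.0, 25.2 and 26.6 CPM in GFPsg libraries. Its RNA was called higher with guide 1, at a log2 change of 0.30 (edgeR adjusted p 0.000213), and not called with guide 2, at 0.02 (adjusted p 0.806). Since a small edit need not lower RNA, these counts do not check the knockout labels. The directions below are between libraries by their labels. Of the 9 melanocyte markers, 8 were tested and all 8 fell, with a summed level of 4977 to 5215 CPM in libraries labelled Tada2bsg1 and 7039 to 7281 CPM in those labelled Tada2bsg2, against 20343 to 21138 CPM in GFPsg libraries. In bulk RNA, fewer cells of a type and less RNA per cell cannot be told apart.

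Of the 110 members, 22 had no read in any library, 88 had at least 1 read and 51 passed the filter on low counts. Changes were tested with edgeR's quasi-likelihood test in 1 fit of all libraries, and a gene was called at a Benjamini-Hochberg adjusted p under 0.05 over all 17931 genes tested. The knockout contrast, the mean of both guides minus GFPsg on the log2 scale, called 8 members higher and 12 lower, or 39.2% of the 51. Over all genes tested the same contrast called 51.0%, with 24.7% higher and 26.3% lower. The members' share was below that background, and their counts were low, with a median of 0.470 CPM against 11.3 CPM over all tested genes. Among the 18 members with a mean of at least 1 CPM, 12 were called, or 66.7%, against 61.0% of all genes at that level. The median log2 change was −0.11 over tested members and −0.02 over all tested genes. A member read in 1 group only could pass the filter through that group alone, so these counts are descriptions of the tested members. With libraries scaled by their totals alone, 9 members were called higher and 12 lower, while the split over all genes became 5914 higher and 3436 lower, against 4426 and 4715 with the trimmed mean of M-values (TMM).

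Against GFPsg, guide 1 alone gave 7 members higher and 14 lower (41.2%), with 48.4% called over all genes, 23.8% higher and 24.5% lower. Guide 2 alone gave 9 higher and 11 lower (39.2%), with 45.1% called over all genes, 22.1% higher and 23.0% lower. These comparisons share the GFPsg libraries. Set directly against guide 1, guide 2 differed at 1 member, Cdh19, which was higher with guide 2, and no member was lower. That is 1.96% of the members tested, against 3.68% over all genes, 2.66% higher and 1.02% lower.

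Few genes carried most of the superfamily's RNA. Levels between genes are given as CPM per kb of exon. Cdh2 stood first in libraries labelled Tada2bsg1, at 29.8 ± 0.50 CPM per kb (SD, n = 3), and Cdh19 second at 12.5 ± 0.54 CPM per kb. In GFPsg libraries Cdh19 stood first at 40.3 ± 2.79 CPM per kb and Cdh2 second at 15.2 ± 1.03 CPM per kb. In every library the 5 leading members, which also included Fat1, Pcdhgb2 and Pcdh7, held 85.8% to 88.9% of the summed level.

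Cdh19 held 16.7 ± 0.63% of that sum in libraries labelled Tada2bsg1 and 19.3 ± 1.77% in those labelled Tada2bsg2, against 45.4 ± 3.24% in GFPsg libraries (SD, n = 3 each). Cdh2 held 39.8 ± 0.54% under guide 1 and 36.8 ± 0.39% under guide 2, against 17.1 ± 0.93% in GFPsg libraries. The Cdh2 level per kb over the Cdh19 level per kb was 2.46, 2.31 and 2.40 under guide 1 and 2.08, 1.94 and 1.74 under guide 2, against 0.433, 0.339 and 0.364 in GFPsg libraries. The leading gene thus differed between the labelled knockout and GFPsg libraries. The summed level of all members was 74.5 to 75.3 CPM per kb under guide 1 and 79.0 to 84.6 CPM per kb under guide 2, against 86.8 to 90.7 CPM per kb in GFPsg libraries, so that every guide library lay below every GFPsg library. Summed without regard to length, members had 611 to 615 CPM under guide 1 and 627 to 700 CPM under guide 2, against 613 to 658 CPM in GFPsg libraries, which overlapped. The order of the first 2 genes in each group was the same with mean transcript length or with exon length not shared with other genes. That of Fat1, Pcdhgb2 and Pcdh7 moved with the length used. Pcdhgb2 and Pcdh7 under guide 1, at 6.91 ± 0.27 and 6.80 ± 0.11 CPM per kb, differed by less than their SD. With unshared exon length under guide 1, Cdh19 at 12.5 and Pcdhgb2 at 12.2 CPM per kb differed by less than the Cdh19 SD of 0.54.

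**Figure D1:**
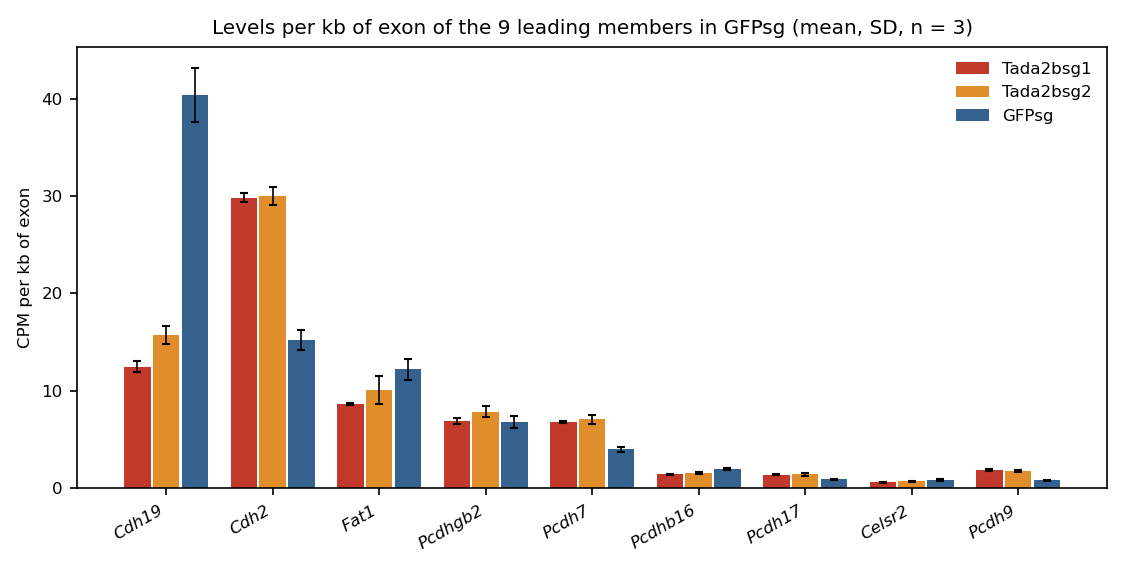
Mean level in CPM per kb of exon (linear axis from 0) of the 9 leading members in GFPsg, in order of their GFPsg level, with bars for each group and error bars of 1 SD over 3 libraries. Cdh2 leads in both guide groups, at 29.8 CPM per kb under guide 1, and Cdh19 leads in GFPsg at 40.3 CPM per kb.

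Among the classical type I cadherins, which hold adherens junctions together, Cdh2 rose and Cdh1 fell. Cdh2 (chromosome 18, 16588877 to 16809246, minus strand), N-cadherin, had 236, 242 and 244 CPM under guide 1 and 249, 244 and 234 CPM under guide 2, against 130, 114 and 124 CPM in GFPsg libraries. Guide libraries did not overlap with GFPsg libraries, and its log2 change was 0.98 ± 0.04 (SE), or 1.97-fold, with an edgeR adjusted p of 2.72e-12.

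Cdh1 (chromosome 8, 106603351 to 106670246, plus strand), E-cadherin, was scarce. It had 10, 20 and 8 reads under guide 1 and 19, 16 and 14 reads under guide 2, against 57, 51 and 57 reads in GFPsg libraries. Every guide library lay below every GFPsg library, with a log2 change of −2.03 ± 0.27 and an edgeR adjusted p of 8.18e-06. The fitted change was a 4.08-fold fall. Cdh3, P-cadherin, which lies beside Cdh1 on chromosome 8, did not pass the filter, with 10, 5 and 9 reads under guide 1 and 1, 7 and 6 reads under guide 2, against 1, 0 and 0 reads in GFPsg libraries. With no filter on low counts its log2 change was 3.68 with an edgeR adjusted p of 0.00297, a fitted value that depends on the 1 read in GFPsg. The other type I members were near 0, with 3 reads in all for Cdh4 (R-cadherin) and at most 7 in any library for Cdh15 (M-cadherin).

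Epithelial markers were scarce in every group, with Epcam at 1 read over all 9 libraries and a summed level over the list of 0.484 to 0.731 CPM under guide 1 and 0.460 to 0.658 CPM under guide 2, against 0.338 to 0.585 CPM in GFPsg libraries. Of the 2 tested, Krt7, at 3 to 16 reads per library, was called higher at 1.37 on the log2 scale (edgeR adjusted p 0.0138). Grhl2 was not called, at −0.23. Fibroblast markers were higher in 4 of the 5 tested, with 245 to 256 CPM summed under guide 1 and 210 to 244 CPM under guide 2, against 15.1 to 17.5 CPM in GFPsg libraries. Most of that sum was Col1a1, and the fibroblast markers Dcn and Lum had 2 and 10 reads over all 9 libraries. The part of these markers in the changes of Cdh1 and Cdh2 was not tested.

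Of the type II cadherins, a related class with a different adhesive interface, 6 of 13 were tested, with 1 called higher and 1 lower, or 33.3%, against 51.0% of all genes. Cdh19 (chromosome 1, 110888326 to 110977584, minus strand), known from neural crest-derived cells such as Schwann cell precursors, fell under both guides. It had 50.9, 55.5 and 53.9 CPM under guide 1 and 63.6, 66.7 and 71.4 CPM under guide 2, against 159, 178 and 181 CPM in GFPsg libraries. The guide libraries overlapped neither with GFPsg nor with each other. The log2 change was −1.53 ± 0.05, or 2.88-fold lower, with an edgeR adjusted p of 1.69e-14. Guide 2 libraries were above guide 1 libraries by 0.33 ± 0.06 on the log2 scale, with an edgeR adjusted p of 0.00184. The summed melanocyte markers stood in the same order across the 3 groups, and their part in the Cdh19 values was not tested.

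Cdh9, a type II cadherin of neuronal synapses, had 0.823, 0.739 and 0.718 CPM under guide 1 and 0.697, 0.606 and 0.544 CPM under guide 2, against 0.230, 0.360 and 0.252 CPM in GFPsg libraries. Its log2 change was 1.29 ± 0.24 with an edgeR adjusted p of 0.000228. It overlaps Gm49127 on the opposite strand, and the strand setting of the counting was not given. Cdh24 had 0.288 ± 0.022 CPM per kb under guide 1 and 0.277 ± 0.056 under guide 2, against 0.232 ± 0.049 CPM per kb in GFPsg libraries. These means stood above those of Cdh6 and Cdh10 in every group, but single libraries did not all keep that order. In GFPsg replicate 2, Cdh24 had 0.176 CPM per kb, below Cdh6 at 0.234 and Cdh10 at 0.185. In Tada2bsg2 replicate 3 it had 0.220 CPM per kb, below Cdh6 at 0.241. Cdh24, Cdh6 and Cdh10 were not called, at 0.28 ± 0.19, 0.16 ± 0.14 and 0.05 ± 0.15 on the log2 scale. Cdh11, a cadherin of mesenchymal cells, had 0.276 ± 0.0662 CPM under guide 1 and 0.334 ± 0.0725 CPM under guide 2, against 0.323 ± 0.136 CPM in GFPsg libraries, and was not called. Cdh5, the endothelial cadherin, had 1 read over all 9 libraries.

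Cdh13 (chromosome 8, 118283733 to 119324921, plus strand), T-cadherin, is held to the membrane by a lipid anchor and lacks the tail that binds catenins. It had 0.620, 0.753 and 0.783 CPM under guide 1 and 0.829, 0.981 and 1.19 CPM under guide 2, against 3.94, 3.58 and 2.83 CPM in GFPsg libraries. Each guide library lay below each GFPsg library, and the log2 change was −2.03 ± 0.14, or 4.07-fold lower, with an edgeR adjusted p of 2.64e-09. T-cadherin is also expressed by endothelium, whose marker list summed to 0.403 to 0.487 CPM under guide 1 and 0.413 to 0.579 CPM under guide 2, against 1.08 to 1.70 CPM in GFPsg libraries. Tie1 had no read and most of that sum was Vwf, and the part of these markers in the Cdh13 values was not tested. Cdh17, the liver and intestine cadherin, did not pass the filter, with 2, 3 and 8 reads under guide 1 and 4, 2 and 3 reads under guide 2, against 12, 12 and 4 reads in GFPsg libraries.

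The desmosomal cadherins, desmocollins and desmogleins, join desmosomes to intermediate filaments. Of their 9 genes, 8 had no read, and Dsc1 had 2 reads, both under guide 1. Taken alone, a library with 0 reads sets an upper limit of about 3 expected reads, and 9 such libraries together set a tighter one.

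**Figure D2:**
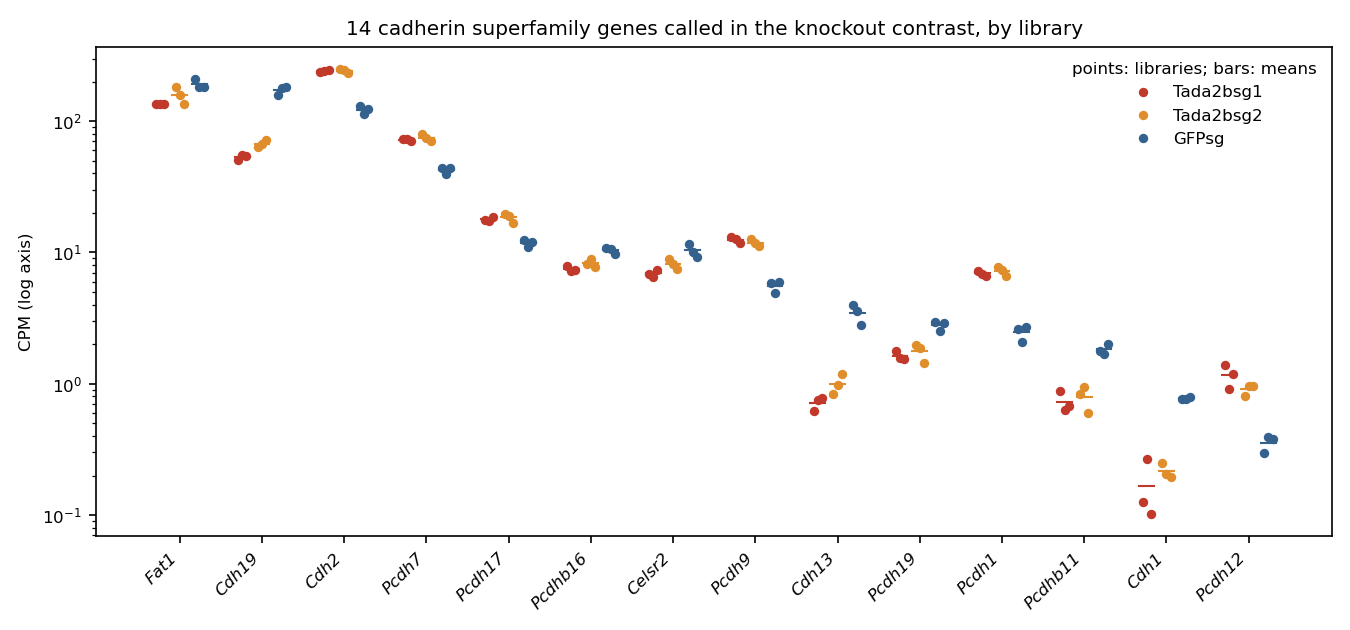
CPM (log axis) of 14 of the 20 members called in the knockout contrast, those with a mean of at least 1 CPM in some group and Cdh1, with 1 point per library, bars at the group means, and guide 1 left of guide 2 and GFPsg. Cdh2 sits at 234 to 249 CPM in guide libraries and at 114 to 130 CPM in GFPsg libraries, and Cdh13 at or below 1.19 CPM in guide libraries and at 2.83 CPM or more in GFPsg libraries.

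The Fat, Dachsous and Celsr genes encode giant cadherins that act in planar polarity and growth control. Of their 9 members, 6 were tested, with 1 called higher and 2 lower, or 3 of 6, close to the 51.0% called over all genes. Fat1 (chromosome 8, 44935447 to 45052257, plus strand) had 136, 136 and 134 CPM under guide 1 and 181, 157 and 136 CPM under guide 2, against 211, 181 and 181 CPM in GFPsg libraries. The highest guide 2 library, at 180.7 CPM, lay just below the lowest GFPsg library, at 181.4 CPM. The log2 change was −0.39 ± 0.07 with an edgeR adjusted p of 9.77e-05. It was −0.50 under guide 1 and −0.28 under guide 2, where the edgeR adjusted p of 0.00733 became 0.0831 with library totals alone.

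Celsr2 (chromosome 3, 108390851 to 108415552, minus strand), a seven-pass cadherin of the planar polarity core, had 6.89, 6.49 and 7.38 CPM under guide 1 and 8.93, 8.16 and 7.45 CPM under guide 2, against 11.6, 10.1 and 9.27 CPM in GFPsg libraries. No guide library reached a GFPsg library, with a log2 change of −0.46 ± 0.08 and an edgeR adjusted p of 0.000111. Its relatives Celsr1 and Celsr3 were not called, at −0.23 ± 0.39 and 0.01 ± 0.25 on the log2 scale. Dchs2, a Dachsous ligand of Fat cadherins, had 16, 11 and 9 reads under guide 1 and 16, 4 and 21 reads under guide 2, against 5, 5 and 2 reads in GFPsg libraries. Its log2 change of 1.55 ± 0.57 had an edgeR adjusted p of 0.0306, and the groups overlapped under guide 2. That call was lost on leaving out GFPsg replicate 1, 2 or 3, Tada2bsg1 replicate 1 or Tada2bsg2 replicate 3, with an adjusted p of up to 0.137. Fat2 was not called at −0.17 ± 0.17, while Fat3, Fat4 and Dchs1 did not pass the filter, with at most 3 reads in any library.

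Of the 12 non-clustered protocadherins, single genes with roles in neural and vascular adhesion, 6 passed the filter and all 6 were called, 5 higher and 1 lower, where 51.0% of all tested genes were called. Their median log2 change was 0.96, against −0.02 over all tested genes. Pcdh7 (chromosome 5, 57717967 to 58133230, plus strand) was the most abundant, with 72.5, 73.1 and 70.8 CPM under guide 1 and 79.9, 74.0 and 70.8 CPM under guide 2, against 44.2, 39.7 and 43.9 CPM in GFPsg libraries. Guide and GFPsg libraries did not overlap, with a log2 change of 0.79 ± 0.05, or 1.73-fold, and an edgeR adjusted p of 1.65e-10. Of its 10604 exon bases, 8369 were shared with no other gene, and 4932441J04Rik lies on its opposite strand.

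Pcdh1, a protocadherin of airway epithelium and endothelium, had 7.24, 6.91 and 6.62 CPM under guide 1 and 7.70, 7.39 and 6.64 CPM under guide 2, against 2.62, 2.07 and 2.69 CPM in GFPsg libraries. It rose 2.87-fold, with a log2 change of 1.52 ± 0.10 and an edgeR adjusted p of 4.94e-10. Pcdh12, described in endothelium, had 1.38, 0.914 and 1.18 CPM under guide 1 and 0.802, 0.968 and 0.963 CPM under guide 2, against 0.297, 0.390 and 0.378 CPM in GFPsg libraries. It rose 2.89-fold (log2 change 1.53 ± 0.22, edgeR adjusted p 1.38e-05). Of the endothelial markers, Vwf averaged 0.241 CPM under guide 1 and 0.325 CPM under guide 2, against 1.21 CPM in GFPsg libraries, and Pecam1, which did not pass the filter, 0.104 and 0.103 CPM, against 0.0656 CPM in GFPsg libraries. The part of these markers in the Pcdh12 values was not tested.

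Pcdh9, Pcdh17 and Pcdh19 belong to the delta protocadherins, which are known from developing brain. Pcdh9 (chromosome 14, 93013410 to 93890679, minus strand) had 13.1, 12.6 and 11.9 CPM under guide 1 and 12.7, 11.9 and 11.1 CPM under guide 2, against 5.86, 4.90 and 5.93 CPM in GFPsg libraries, a 2.19-fold rise (log2 change 1.13 ± 0.08, edgeR adjusted p 1.13e-09). Pcdh17 (chromosome 14, 84443563 to 84539002, plus strand) had 17.8, 17.4 and 18.6 CPM under guide 1 and 19.6, 19.0 and 16.7 CPM under guide 2, against 12.4, 11.0 and 12.0 CPM in GFPsg libraries, a 1.54-fold rise (log2 change 0.62 ± 0.06, edgeR adjusted p 2.18e-07). Both genes were higher in every guide library than in any GFPsg library. Pcdh19 (chromosome X, 133582860 to 133688987, minus strand) ran the other way, with 1.77, 1.57 and 1.55 CPM under guide 1 and 1.97, 1.88 and 1.45 CPM under guide 2, against 2.95, 2.50 and 2.92 CPM in GFPsg libraries. Its log2 change was −0.71 ± 0.12 with an edgeR adjusted p of 0.000111. Neuronal marker RNA, almost all of it Tubb3, summed to 58.4 to 59.0 CPM under guide 1 and 63.1 to 64.6 CPM under guide 2, against 94.8 to 99.6 CPM in GFPsg libraries, and Snap25 had no read. Syn1, the other of the 2 tested neuronal markers, went the other way. It was called higher with guide 1, at 0.98 (edgeR adjusted p 0.0446), and not called with guide 2, at 0.62.

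Promoter windows are shown for the called non-clustered protocadherins that have one, and for Celsr2, a called member of the Fat, Dachsous and Celsr class. The windows of the called members Fat1, Cdh9 and Dchs2 are not shown, and that of Fat1 lies inside the gene as GENCODE places it. The windows run 250 bases before to 50 after each gene's start and come from RefSeq on GRCm38.p6, where 29 members matched. Pcdh7 (chr5:57717831-57718130, plus strand), Pcdh9 (chr14:93890630-93890929, minus strand) and Pcdh17 (chr14:84443313-84443612, plus strand) were higher under the guides, and Celsr2 (chr3:108415530-108415829, minus strand) and Pcdh19 (chrX:133688944-133689243, minus strand) were lower. Each is written 5′ to 3′ on the gene's strand, with E-boxes in capitals.
Pcdh7: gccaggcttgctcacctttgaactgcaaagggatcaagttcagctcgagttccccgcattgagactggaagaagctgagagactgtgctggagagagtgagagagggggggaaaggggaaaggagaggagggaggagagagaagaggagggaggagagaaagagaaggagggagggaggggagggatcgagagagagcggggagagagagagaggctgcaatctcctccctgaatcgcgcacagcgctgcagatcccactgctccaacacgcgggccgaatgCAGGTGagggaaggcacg
Pcdh9: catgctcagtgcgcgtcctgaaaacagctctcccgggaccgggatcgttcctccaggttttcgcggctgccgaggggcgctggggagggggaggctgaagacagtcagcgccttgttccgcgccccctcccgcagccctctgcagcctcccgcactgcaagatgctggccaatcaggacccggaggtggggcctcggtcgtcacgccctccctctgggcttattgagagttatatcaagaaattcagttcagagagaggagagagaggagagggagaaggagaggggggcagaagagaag
Pcdh17: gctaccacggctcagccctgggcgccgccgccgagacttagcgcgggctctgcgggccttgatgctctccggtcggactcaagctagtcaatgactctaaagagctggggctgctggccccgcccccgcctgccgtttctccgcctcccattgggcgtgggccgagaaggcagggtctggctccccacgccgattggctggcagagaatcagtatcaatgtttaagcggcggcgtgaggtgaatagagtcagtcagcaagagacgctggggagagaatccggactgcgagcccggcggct
Celsr2: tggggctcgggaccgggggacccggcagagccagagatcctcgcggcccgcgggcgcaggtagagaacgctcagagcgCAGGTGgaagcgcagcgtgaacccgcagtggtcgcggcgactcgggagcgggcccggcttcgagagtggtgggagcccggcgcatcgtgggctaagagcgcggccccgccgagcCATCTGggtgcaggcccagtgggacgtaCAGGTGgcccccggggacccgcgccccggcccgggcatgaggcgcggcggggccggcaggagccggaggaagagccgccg
Pcdh19: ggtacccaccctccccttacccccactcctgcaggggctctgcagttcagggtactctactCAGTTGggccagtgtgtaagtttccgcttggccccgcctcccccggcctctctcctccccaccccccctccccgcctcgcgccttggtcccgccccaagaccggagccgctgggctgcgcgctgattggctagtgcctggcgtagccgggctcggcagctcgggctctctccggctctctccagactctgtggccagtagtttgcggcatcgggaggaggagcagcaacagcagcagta
The E-box searched was CANNTG, which reads the same on both strands and is bound by basic helix-loop-helix factors and by zinc finger repressors of Cdh1. Capitals mark 3 E-boxes in Celsr2, 1 in Pcdh7, 1 in Pcdh19, and none in Pcdh9 or Pcdh17. Of the called members not shown, the windows of Cdh9 (higher) and Fat1 (lower) held 3 each, and that of Dchs2 (higher) none. An E-box was present in 72.3% of all 32851 windows, against 18 of 32 member windows. Its form CAGGTG or CACCTG, which overlaps it, was in 20.2% of all windows and in 7 of 32 member windows. CACATG or CATGTG, another form of it, was in 14.2% of all windows and in 4 of 32 member windows. The AP-1 motif TGACTCA or TGAGTCA was in 5.2% of all windows and in 0 of 32 member windows. These matches describe letters in a window only. The 32 windows belong to 29 members, so Cdh7 and Pcdh9 count more than once. Cdh7 had no read in any library, and each of its windows held CAGGTG or CACCTG. Cdh1, Cdh2, Cdh13 and Cdh19 had no window.

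**Figure D3:**
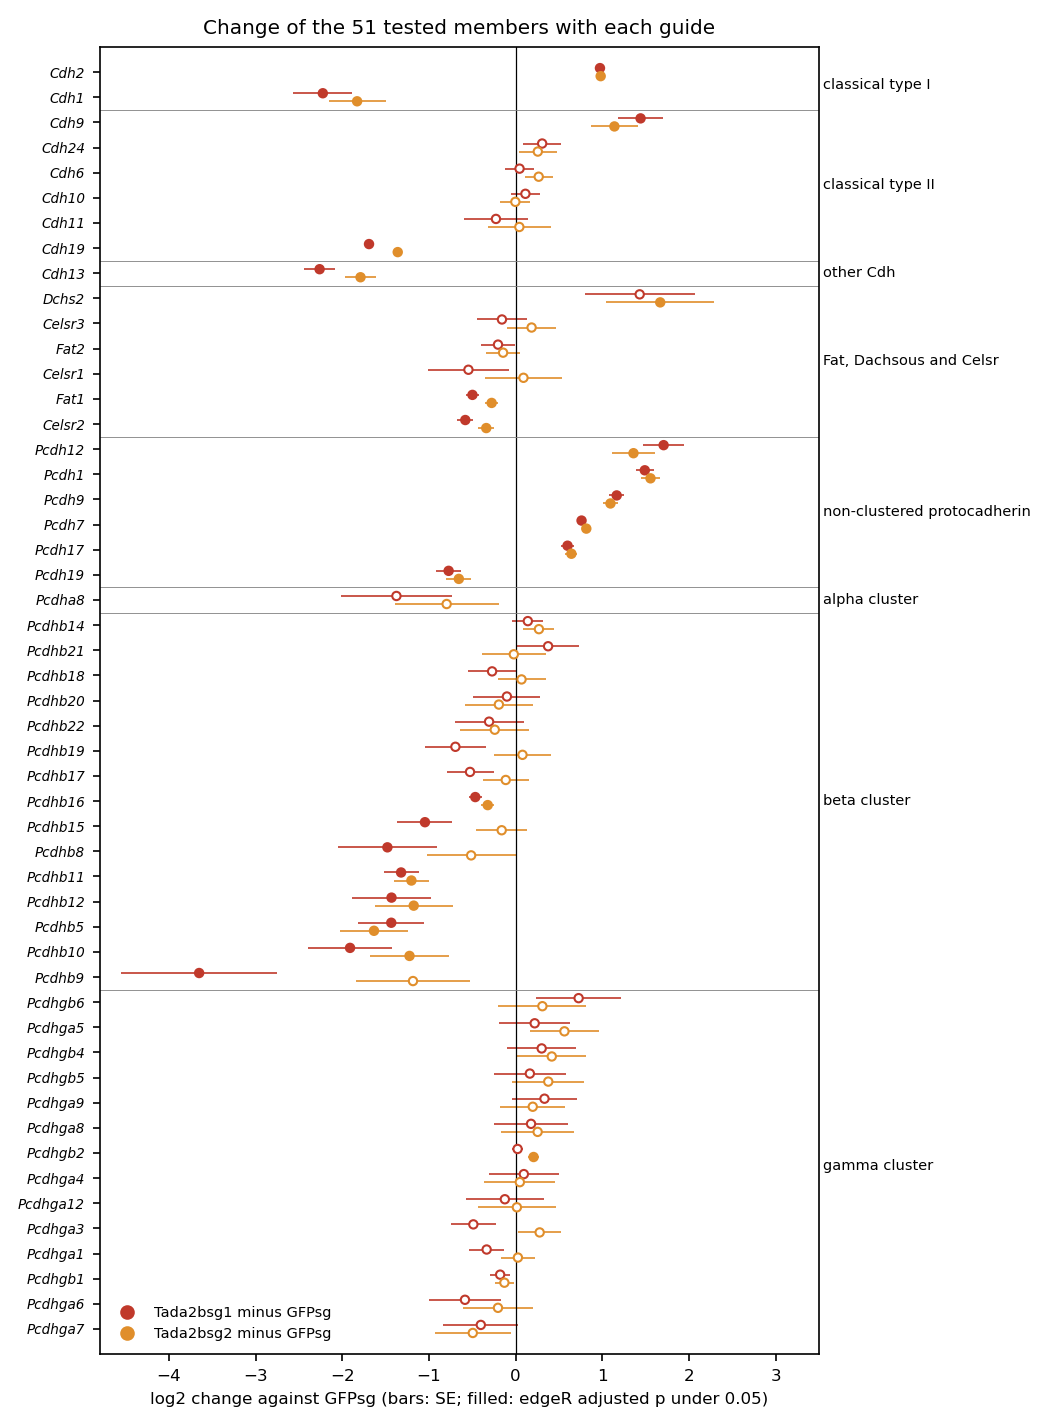
Log2 change against GFPsg of the 51 tested members, by guide and class, with bars of 1 SE and filled points for an edgeR adjusted p under 0.05. Pcdh1 lies at 1.49 with guide 1 and 1.56 with guide 2, Cdh13 at −2.26 and −1.79, and Pcdhb9, with few reads, has wide bars.

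The clustered protocadherins lie side by side on chromosome 18, where each variable exon has its own promoter. The alpha and gamma genes splice to shared constant exons, and reads there cannot be assigned to 1 gene, so that their counts rest mostly on the variable exons. Of 57 clustered members, 30 were tested, of which 1 was in the alpha cluster and 14 in the gamma cluster. The 6 calls in the knockout contrast were all in the beta cluster, whose genes have no shared constant exons. Over all tested genes, 51.0% were called. Beta genes are near-identical in parts, so that reads could be dropped or split between them.

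In the beta cluster, 15 of 22 genes were tested, with 6 called lower and none higher in the knockout contrast, 8 lower with guide 1 and 5 lower with guide 2. These are 40.0%, 53.3% and 33.3% of the genes tested, against 26.3%, 24.5% and 23.0% of all genes called lower and 51.0%, 48.4% and 45.1% called in either direction. Their median log2 change was −0.39, against −0.02 over all tested genes. The cluster summed to 12.7 to 13.5 CPM under guide 1 and 13.9 to 16.1 CPM under guide 2, against 18.5 to 20.8 CPM in GFPsg libraries. Pcdhb16 carried most of it, with 56.8 ± 2.12% of its reads under guide 1 and 54.4 ± 2.13% under guide 2, against 53.6 ± 2.45% in GFPsg libraries.

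Pcdhb16 had 7.89, 7.26 and 7.35 CPM under guide 1 and 8.14, 8.96 and 7.74 CPM under guide 2, against 10.7, 10.6 and 9.78 CPM in GFPsg libraries. Guide libraries did not overlap with GFPsg libraries (log2 change −0.39 ± 0.07, edgeR adjusted p 7.44e-05). Pcdhb11 had 0.874, 0.632 and 0.680 CPM under guide 1 and 0.829, 0.942 and 0.600 CPM under guide 2, against 1.77, 1.69 and 2.01 CPM in GFPsg libraries, a log2 change of −1.26 ± 0.17 with an edgeR adjusted p of 6.71e-06. The other called beta genes had at most 64 reads in any library. Pcdhb5 fell by 1.54 ± 0.32, Pcdhb10 by 1.57 ± 0.39 and Pcdhb12 by 1.30 ± 0.38 on the log2 scale, with edgeR adjusted p of 0.000655, 0.00289 and 0.0082. For Pcdhb12, 1107 of 3034 exon bases were shared with no other gene, and Gm37446 lies on its opposite strand. Pcdhb9 had 1, 2 and 0 reads under guide 1 and 10, 8 and 0 reads under guide 2, against 18, 8 and 13 reads in GFPsg libraries, with an edgeR adjusted p of 0.00469 in the knockout contrast and 0.158 with guide 2 alone. Pcdhb14, at 0.20 ± 0.16, was not called.

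In the gamma cluster, 14 of 21 genes were tested and none was called in the knockout contrast, against 51.0% of all tested genes. The median log2 change was 0.09, against −0.02 over all tested genes. Apart from Pcdhgb2 and Pcdhgb1, no gene averaged more than 2.31% of the cluster's reads in any group, so most tested genes were read thinly. Pcdhgb2 held 81.7 ± 0.57% of the cluster's reads under guide 1 and 82.3 ± 1.61% under guide 2, against 80.3 ± 0.68% in GFPsg libraries. It had 35.2, 33.1 and 32.8 CPM under guide 1 and 40.4, 35.3 and 39.3 CPM under guide 2, against 35.0, 29.9 and 34.7 CPM in GFPsg libraries. The change of 0.11 ± 0.06 on the log2 scale had an edgeR adjusted p of 0.10. It was called with library totals alone (0.20, adjusted p 0.0143), with a replicate block (0.12, adjusted p 0.0160) and without Tada2bsg2 replicate 2 (0.15, adjusted p 0.0268). With guide 2 alone it was 0.21, called at an adjusted p of 0.014, and not called without GFPsg replicate 2, at 0.15 and an adjusted p of 0.0676. Pcdhgb1 was not called, at −0.15 ± 0.10, nor were Pcdhga7, Pcdhgb6 and Pcdhga6, at −0.45, 0.52 and −0.39. Below the filter, Pcdhgb7 had 4, 17 and 12 reads under guide 1 and 7, 7 and 4 under guide 2, against 5, 6 and 2 in GFPsg libraries, and Pcdhga11 and Pcdhga2 had 1 to 12 reads in each library.

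The alpha cluster was nearly silent, with a summed level of 0.148 to 0.329 CPM under guide 1 and 0.142 to 0.405 CPM under guide 2, against 0.216 to 0.657 CPM in GFPsg libraries. Of its 14 genes, 5 had no read and 1 was tested, Pcdha8, which was not called, at −1.09 ± 0.52 with an edgeR adjusted p of 0.0950. Its value rested on single GFPsg libraries, at −1.43 without replicate 1, where it was called (adjusted p 0.0413), and −0.34 without replicate 3 (adjusted p 0.692). The symbol Pcdha11 belongs to 2 gene identifiers, of which the first had 8, 5 and 2 reads under guide 1 and 4, 5 and 6 under guide 2, against 5, 12 and 13 in GFPsg libraries, and the second had 1 read in all.

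**Figure D4:**
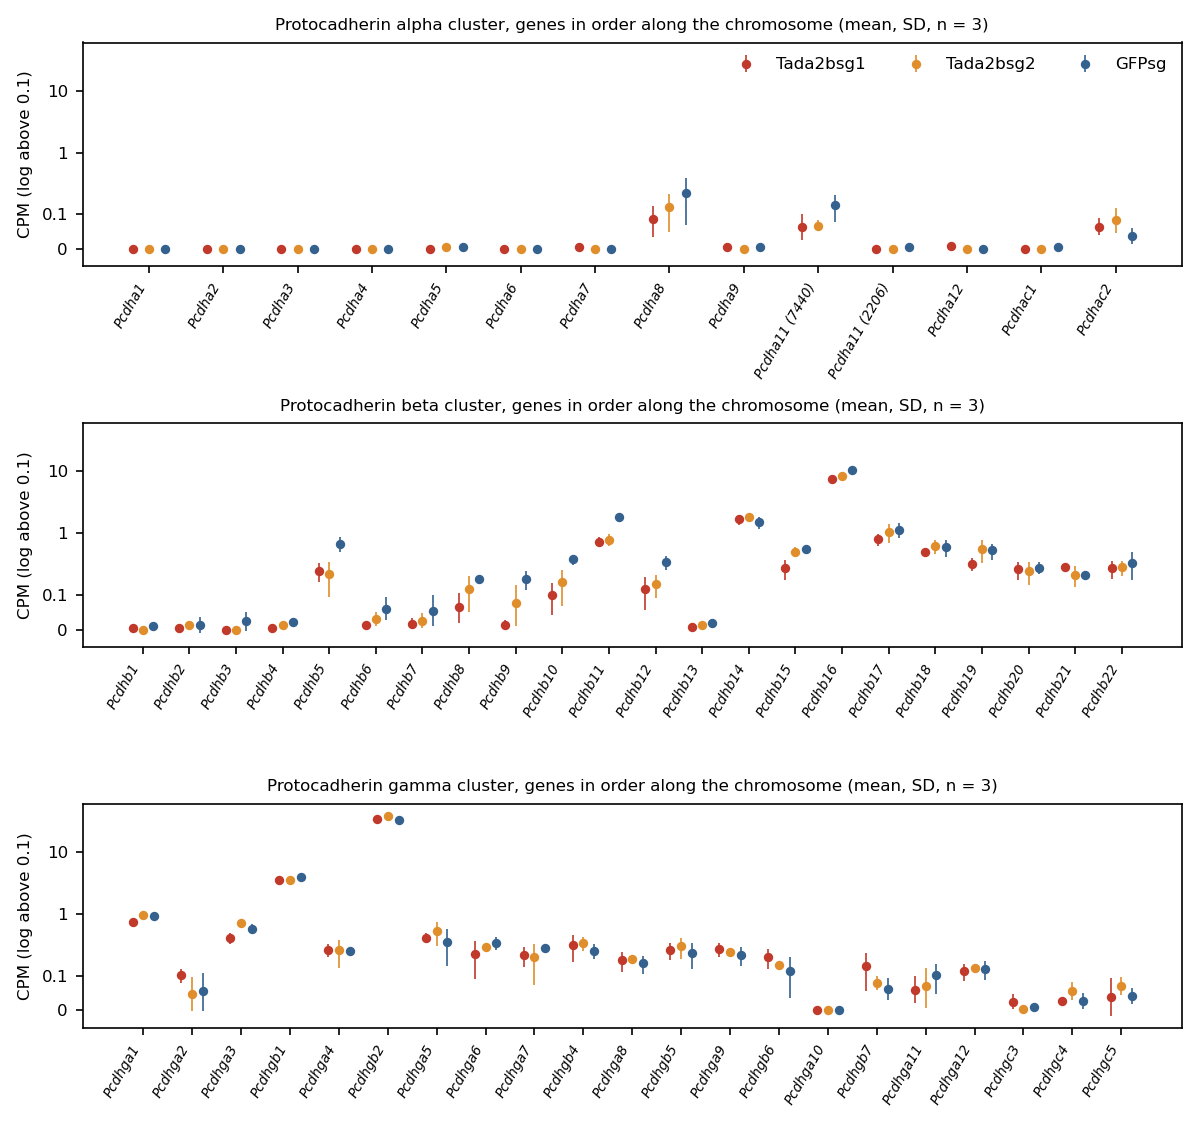
Mean CPM of the clustered protocadherins by group, in chromosomal order, with SD bars (axis linear below 0.1 CPM and logarithmic above). Pcdhgb2 stands out in all groups, at 33.7 CPM under guide 1, 38.3 CPM under guide 2 and 33.2 CPM in GFPsg, Pcdhb16 follows, and the beta genes called lower sit below GFPsg under both guides.

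Genes that work with cadherins were taken from 6 lists. Of the 20 catenins and junction plaque genes, 14 were tested, with 7 higher and 3 lower and a median log2 change of 0.39. That is 71.4% called, against 51.0% of all tested genes and 61.0% of those with a mean of at least 1 CPM, the background for the lists that follow too. Pkp2 (plakophilin-2, a desmosomal plaque protein) averaged 41.4 ± 1.00 CPM under guide 1 and 39.5 ± 0.806 CPM under guide 2, against 9.29 ± 0.258 CPM in GFPsg libraries, a log2 change of 2.12 ± 0.05 with an edgeR adjusted p of 2.83e-16. Arvcf, a p120-like catenin, averaged 15.5 ± 1.76 CPM under guide 1 and 14.7 ± 0.656 CPM under guide 2, against 3.94 ± 0.0622 CPM in GFPsg libraries (log2 change 1.93 ± 0.08, edgeR adjusted p 1.30e-12). Ctnnb1 (beta-catenin), which links classical cadherins to alpha-catenin, fell to 505 ± 4.23 CPM under guide 1 and 536 ± 5.46 CPM under guide 2, against 903 ± 22.1 CPM in GFPsg libraries (log2 change −0.80 ± 0.03, edgeR adjusted p 4.32e-13). Vcl (vinculin) rose, at 1.00 ± 0.04. Ctnna1 (alpha-catenin) and Ctnnd1 (p120-catenin) were not called, at 0.07 ± 0.04 and 0.00 ± 0.04 on the log2 scale. The plaque genes thus moved in both directions, while the desmosomal cadherins had next to no reads.

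Of the 15 genes of planar polarity, which Celsr and Fat cadherins act in, 13 were tested, with 5 higher and 4 lower (69.2% called). Prickle1 had a log2 change of −1.22 ± 0.03 and Vangl2 of −0.54 ± 0.05, while Fzd6 changed by 0.70 ± 0.04 and Dvl1 by 0.58 ± 0.04. All 10 genes of cadherin cleavage, by ADAM proteases and gamma-secretase, were tested, with 3 higher and 5 lower (80.0% called, against 24.7% of all genes higher and 26.3% lower). The gamma-secretase genes Aph1c, Psen2 and Aph1b fell by 2.24 ± 0.03, 1.60 ± 0.04 and 0.50 ± 0.04 on the log2 scale, and Ncstn rose by 0.32 ± 0.03. Aph1b and Aph1c are close copies, so reads could be dropped or split between them.

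Of 17 transcription factors known to repress or activate Cdh1 or epithelial genes, 9 were tested, with 3 higher and 2 lower (55.6% called, near the background). By guide, 77.8% were called with guide 1, against 48.4% of all genes, and 44.4% with guide 2, against 45.1%. Zeb2, a repressor of Cdh1, averaged 167 ± 5.37 CPM under guide 1 and 190 ± 12.3 CPM under guide 2, against 225 ± 5.96 CPM in GFPsg libraries (log2 change −0.34 ± 0.04, edgeR adjusted p 1.47e-06). Snai2, another repressor, was not called, at 0.18 ± 0.09. Klf8 rose by 0.70 ± 0.18, Tcf4 by 0.17 ± 0.04, and Tcf3 fell by 0.17 ± 0.04, a call lost with library totals alone. Of 14 regulators of the protocadherin clusters, all tested, 3 were higher and 6 lower (64.3% called, near the background of genes at 1 CPM or more), and each change named here was under 1 on the log2 scale. By guide, 42.9% of these regulators were called with guide 1 and 71.4% with guide 2. Ctcf and the cohesin subunit Stag2 fell by 0.13 ± 0.03 and 0.33 ± 0.04, and the DNA methyltransferase Dnmt3b by 0.68 ± 0.08. Ehmt1 and Setdb1, histone methyltransferases, fell by 0.16 ± 0.04 and 0.19 ± 0.05, and both calls were lost with library totals alone. Of 9 other genes with cadherin domains, 4 were tested, with Clstn3 higher at 0.33 ± 0.05 and Cdhr4, Cdhr2 and Clstn1 lower at −1.13 ± 0.19, −1.55 ± 0.42 and −0.14 ± 0.04. The Clstn1 call was lost with library totals alone and without GFPsg replicate 1, and the Cdhr2 call without GFPsg replicate 3. With guide 2 alone, 1 of these 4 genes was called higher and 1 lower.

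**Figure D5:**
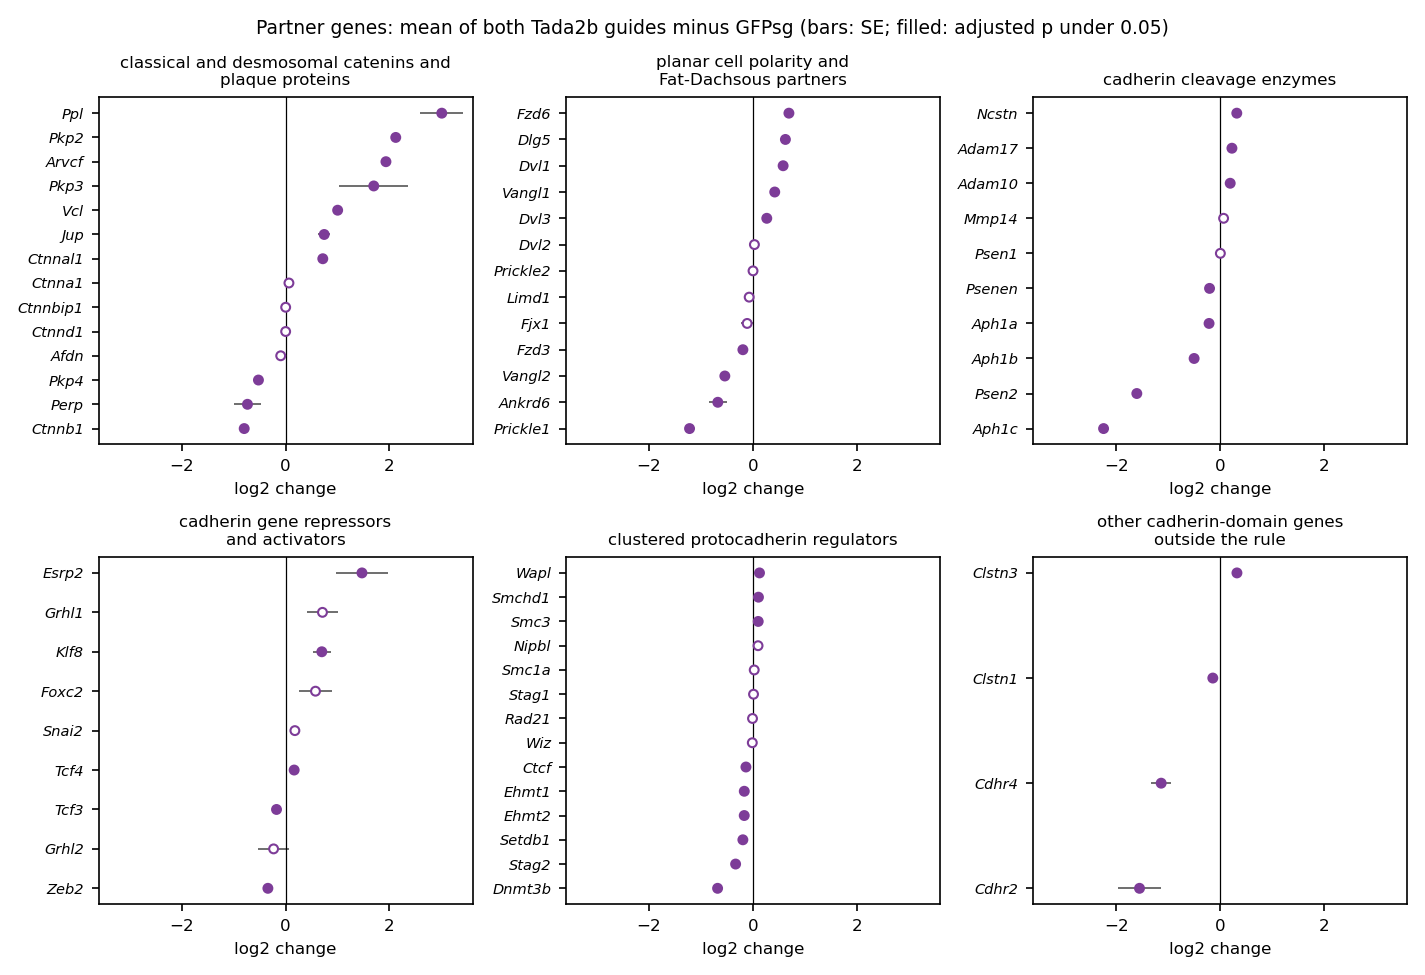
Log2 change in the knockout contrast of the tested partner genes, by list, with bars of 1 SE and filled points for an edgeR adjusted p under 0.05. Among plaque genes Pkp2 lies at 2.12 and Ppl, read at under 1 CPM, at 3.01, and Aph1c is the lowest cleavage gene at −2.24.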

How the data were processed

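RNA-seq counts of 9 B16F10 libraries were used. Per the submitters' processing notes, reads were handled with bcl2fastq, HISAT2 and HTSeq on mm10. The sources used here give no version, annotation release or strand setting. The deposited table held raw counts per gene, with no normalization by the authors. HTSeq by default leaves out reads that fall on several genes, which lowers counts of genes with shared exons. Of 54752 identifiers, 54723 matched GENCODE M21.

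EdgeR 4.0.16 in R 4.3.3 was run with TMM scaling, filterByExpr (count minimum 10, 17931 genes kept, holding 99.97% of counts) and the quasi-likelihood test in 1 fit of 3 groups, tested first on simulated data. A gene was called at a Benjamini-Hochberg adjusted p under 0.05 over all tested genes. SE is the change over the square root of F. CPM used TMM-scaled library sizes, and levels per kb used union exon length. DESeq2 1.42.0 and other settings were alternatives. The common biological coefficient of variation was 0.0526, and replicate pairs differed beyond sampling noise (chi-square per degree of freedom 7.12 to 22.7).

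Members and lists were chosen with earlier results of these data known. Named members were those called with a mean of at least 1 CPM in some group, the 5 of highest level, the abundant uncalled ones, Cdh1, Cdh2 and Cdh3, up to 3 more per protocadherin cluster by lowest p, and the leading ones under the filter. Up to 4 partners per list were named, by lowest p. Members and partners named beyond these were chosen after their values were seen.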

Additional observations from a re-analysis of the deposited data

Results flagged for a closer look

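Guide 2 was set directly against guide 1 in the same edgeR fit. Between the guides, 1 member and 4 named partner genes differed, each of them lower than GFPsg under both. The member is 1.96% of the 51 tested, against 3.68% of all genes tested, 2.66% higher and 1.02% lower. The partners are 1 of 13 tested planar polarity genes, 2 of 10 cleavage genes and 1 of 9 transcription factors. No gene of the other partner lists was called. Cdh19 was higher with guide 2 than with guide 1 by 0.33 on the log2 scale (adjusted p 0.00184), Prickle1 by 0.43 (adjusted p 2.2e-06), Aph1c by 0.61 (adjusted p 1.75e-07), Psen2 by 0.48 (adjusted p 8.6e-06) and Zeb2 by 0.19 (adjusted p 0.0303). For Cdh19, all 3 guide 2 libraries were above all 3 guide 1 libraries. The 8 tested melanocyte markers were also all called higher with guide 2 than with guide 1, against 2.66% of all genes. Their changes were 0.44 (Dct) to 0.69 (Kit) on the log2 scale. Tada2b itself was lower with guide 2 than with guide 1, at −0.28 (adjusted p 0.00671).

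Pcdhgb8 is a gamma cluster gene that the annotation does not class as protein-coding, so it is outside the 110 members. It averaged 0.144 ± 0.0819 CPM under guide 1 and 0.119 ± 0.0440 CPM under guide 2, against 0.0473 ± 0.0216 CPM in GFPsg libraries (SD, n = 3 each). In the knockout contrast it changed by 1.44 on the log2 scale (edgeR adjusted p 0.0456). It had 4, 13 and 16 reads under guide 1 and 10, 12 and 5 reads under guide 2, against 2, 3 and 5 reads in GFPsg libraries, so that each guide overlapped with GFPsg. With guide 2 alone it was not called (adjusted p 0.113).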

How the results depend on the processing

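Over 16 alternatives and 144 gene results, 2198 values kept their side of the threshold, 38 lost a call, 14 gained one and none reversed a call. Among the 2198, 36 changed sign without being called in either setting. In the guide 1 contrast, 8 members were called lower with a count minimum of 50, against 14, where 25 members were tested instead of 51. Guide 2 against guide 1 called 3 members higher with no filter and 3 with a replicate block, and 1 to 2 on leaving out a replicate. Without Tada2bsg2 replicate 3 the second was Fat1, at 0.32 with an adjusted p of 0.00806, against 0.22 and 0.15 with it.

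Over all genes, guide 2 against guide 1 called 660 genes, 1070 with no filter, 1705 with the block and 335 to 808 on leaving out a replicate. With the block the knockout contrast called 9 members higher and 12 lower. Deviations of same-numbered libraries correlated at −0.0121 to 0.10, and those of differently numbered libraries at −0.0884 to 0.0407. The labels do not say that equal numbers mark a pair, so the block was kept as an alternative only. These values do not exclude a shared batch. Members under the filter were read too thinly to test at this depth. With no filter Cdh3 was called higher and Pcdhb3, with 5 reads in GFPsg libraries, lower. The causes were not tested.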
